A study of Mus musculus with 12 samples.

Results

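The regions described here are stretches of open chromatin that appeared in the peak list of cells kept for 120 h without estradiol (E2) and in no other list of the series. They were selected on the measured calls themselves: the 6 peak lists were merged into 16028 union regions, and those overlapped by a 120 h peak and by no peak of the other 5 lists were taken. There were 458 of them, or 2.86% of the union regions and 5.73% of the 7987 peaks at 120 h. Being called at 120 h alone is therefore how they were chosen, and it is not a result.

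The libraries came from murine ER-Hoxa9-Lys-GFP cells, which the labels give as strain C57BL/6 cells grown in vitro in medium with serum and stem cell factor (SCF) conditioned medium. All groups carried the ER-Hoxa9 fusion, in which the homeobox factor Hoxa9 is joined to the estrogen receptor and is active while E2 is present, and a GFP reporter of lysozyme. ATAC-seq, which marks open chromatin by where the Tn5 transposase can insert, was run on 12 libraries in 6 groups of 2. E2 was present throughout in 1 group, and a different group was washed and left without it for 120 h. The remaining 4 groups went without E2 for 24, 40, 56 or 72 h and then had E2 back for 96, 80, 64 or 48 h. The 120 h group was thus the longest without E2 and the only E2-deprived group that had none added back, and these differences cannot be told apart.

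Each group was represented by 1 list of peak positions with no score, count or depth, so the depth was unknown and no replicate values existed. Per the labels' protocol, nuclei of a preparation were divided between 2 transposition reactions, so the 2 libraries of a group may be technical replicates. No comparison between samples can be tested with 1 list per group. Intervals given below are 95% intervals that cover counting error over regions or genes only, and neighbouring regions are not independent. The groups' lists held 13165, 11465, 9940, 8989, 9581 and 7987 peaks in order of time without E2, and median peak widths fell from 839 bases in continuous E2 to 581 bases at 120 h. The share of peaks found in no other list was 14.9% in continuous E2, 3.17% after 24 h, 0.976% after 40 h, 0.968% after 56 h, 2.16% after 72 h and 5.73% at 120 h. The lists at both ends of the series thus held the largest such shares, and those between had a neighbouring list on either side.

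Hoxa9 is a homeobox transcription factor of immature hematopoietic cells, and cells held by active Hoxa9 remain progenitors that divide. When its activity is withdrawn, myeloid progenitors mature along the neutrophil and monocyte pathway, in which primary granule proteins are made early and secondary granule, NADPH oxidase and chemoattractant receptor genes are used late. C/EBP factors and PU.1 are the main DNA-binding factors of that pathway, and both act at promoters and at distant enhancers.

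Promoter stretches of 6 genes are shown because they carry both the gene groups and the motifs described below. The 6 genes were chosen after their values were seen. Each stretch is the 250 bases before the gene's start in RefSeq, build GRCm38, written 5′ to 3′ on the gene's strand, and each overlaps a region called at 120 h alone. Capitals mark matches on either strand to the C/EBP motif TTGCNNAA and the PU.1 motif GAGGAA, which reads TTCCTC on the opposite strand. A match is a match of letters and does not show binding.
S100a8 (chr3:90668821-90669070, plus strand): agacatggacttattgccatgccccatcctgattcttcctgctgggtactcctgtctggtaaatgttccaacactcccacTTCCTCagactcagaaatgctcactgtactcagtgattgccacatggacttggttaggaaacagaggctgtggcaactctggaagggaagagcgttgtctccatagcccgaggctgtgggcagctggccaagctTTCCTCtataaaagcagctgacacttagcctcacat
S100a9 (chr3:90695722-90695971, minus strand): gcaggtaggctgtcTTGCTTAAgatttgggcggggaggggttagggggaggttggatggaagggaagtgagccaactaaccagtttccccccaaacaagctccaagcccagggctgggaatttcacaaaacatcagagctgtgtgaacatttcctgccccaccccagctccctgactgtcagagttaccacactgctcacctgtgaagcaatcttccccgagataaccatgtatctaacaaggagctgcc
Lcn2 (chr2:32387740-32387989, minus strand): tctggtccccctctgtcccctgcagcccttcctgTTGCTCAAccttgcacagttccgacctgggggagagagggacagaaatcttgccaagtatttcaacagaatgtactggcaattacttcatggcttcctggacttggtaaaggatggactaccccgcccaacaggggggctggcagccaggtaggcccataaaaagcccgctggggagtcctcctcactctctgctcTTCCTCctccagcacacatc
Stfa1 (chr16:36276898-36277147, plus strand): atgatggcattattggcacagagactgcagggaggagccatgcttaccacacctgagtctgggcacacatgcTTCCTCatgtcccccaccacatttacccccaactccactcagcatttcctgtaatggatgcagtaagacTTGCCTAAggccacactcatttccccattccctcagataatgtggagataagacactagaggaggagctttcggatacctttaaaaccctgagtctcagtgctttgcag
Clec4a1 (chr6:122921598-122921847, plus strand): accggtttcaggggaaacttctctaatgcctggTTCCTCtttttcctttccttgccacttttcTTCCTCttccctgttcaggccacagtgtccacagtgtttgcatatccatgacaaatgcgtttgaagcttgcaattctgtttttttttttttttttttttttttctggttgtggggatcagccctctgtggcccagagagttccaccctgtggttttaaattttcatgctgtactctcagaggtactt
Nlrp3 (chr11:59542436-59542685, plus strand): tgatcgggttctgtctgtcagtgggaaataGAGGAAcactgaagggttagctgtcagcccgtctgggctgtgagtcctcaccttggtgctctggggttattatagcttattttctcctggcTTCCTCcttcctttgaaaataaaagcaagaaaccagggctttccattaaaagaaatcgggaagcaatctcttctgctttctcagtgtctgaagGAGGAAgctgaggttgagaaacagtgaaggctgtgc

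In the 300-base windows that run from 250 bases before to 50 after a start, the Nlrp3 window shown held 3 PU.1 matches, S100a8 and Clec4a1 held 2 each, and Lcn2 and Stfa1 held 1 PU.1 and 1 C/EBP match. The S100a9 window held 1 C/EBP match and no PU.1 match. A window needs only to overlap a region in part, so a match can lie outside the region. The Lcn2 PU.1 match did so, lying between the region and the gene's start. A second Nlrp3 window in the same region (chr11:59541319-59541618), at another start, held no match to either motif. The 6 windows shown were poor in CpG dinucleotides, with 2 to 5 in each.

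Among 15 gene lists, late neutrophil genes, which are switched on in maturing neutrophils, most often held such a region. Of 24 such genes with any region in the series, 10 had a region called at 120 h alone (41.7%, interval 24.5 to 61.2), against 385 of the 10478 protein-coding genes with a region (3.67%). These 10 regions were 27.8% of the 36 regions of the list. The list held 35 genes, and genes with no region in any list were not counted. Of the 10 genes, 5 had no other region and so entered the 24 only through the region counted. In lists described below, that held for 3 oxidase and phagocytosis, 2 receptor, 2 pattern recognition and 1 transcription factor gene. Among all 385 genes it held for 109. Regions first called after 56 or 72 h and still called at 120 h lay at 2 of the same 24 genes. These were Cxcr4, a chemokine receptor, and Hp, which encodes haptoglobin. Over all protein-coding genes with a region, that share was lower, at 309 of 10478 (2.95%), and no interval was computed for the 2 genes. Regions called in continuous E2 and not at 120 h lay at 9 of the 24 late neutrophil genes, against 4562 of the 10478 (43.5%). The lists of genes were drawn up with earlier results of these data known, so their counts are descriptions. With only 120 h peaks of at least 581 bases, the median width, 4 late neutrophil genes had such a region.

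S100a8 and S100a9 encode the subunits of calprotectin, an abundant calcium-binding protein of neutrophil cytoplasm. The S100a8 region (chr3:90668729-90669333, 605 bases) and the S100a9 region (chr3:90695643-90696000, 358 bases) each covered the start of its gene. Here and below, a gene's regions are those assigned to it, and regions assigned to neighbouring genes can lie near it. S100a8 had no other region in any list, whereas S100a9 also had a region called in continuous E2 alone. Lcn2 encodes lipocalin 2, a siderophore-binding protein of secondary granules, and its only region (chr2:32387807-32388192) lay 68 bases upstream of its start. Regions assigned to other genes were centred at 5.85 and -8.17 kb from that start. The first was called in every list except that at 120 h, the second in every list except that at 24 h. Stfa1, a cysteine protease inhibitor of the stefin family, had its only region over its start (chr16:36276883-36277229, 347 bases), with the reservation that close copies of this gene lie nearby and reads could be shared among them. Ifitm6, of the interferon-induced transmembrane family, also had its only region over its start, 673 bases wide. Itgb2l, an integrin beta subunit gene of neutrophils, had its only region inside the gene, 3304 bases from the start.

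The other 4 late neutrophil genes also held regions of other kinds. Anxa1, which encodes the anti-inflammatory protein annexin A1, had a 120 h region over its start beside 2 regions that were called in continuous E2 and not at 120 h. Chil3, a chitinase-like secreted protein, had its 120 h region 2924 bases upstream and another called after 72 h alone. Pygl, a glycogen phosphorylase, had its 120 h region 8092 bases inside the gene and a region called in every list except that at 40 h. Adam8, a surface metalloprotease, had a 120 h region and another called after 40 h, after 72 h and at 120 h.

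Primary granule and promyelocyte genes, which are used earlier, had a region called at 120 h alone in 2 of 15 genes (13.3%, interval 3.74 to 37.9). Csf3r encodes the G-CSF receptor, and its 120 h region lay 6513 bases upstream of the start, beside a region called after 72 h and at 120 h. Cebpa encodes a C/EBP factor needed for granulocyte commitment, and its 120 h region was a narrow one of 183 bases lying 28989 bases beyond the gene's end.

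Genes of the NADPH oxidase and of phagocytosis had a region called at 120 h alone in 6 of 21 (28.6%, interval 13.8 to 49.96). Of these 6 genes, 3 encode oxidase subunits. Ncf1, an organizer subunit in the cytosol, had as its only region a wide one (chr5:134232202-134233241, 1040 bases) 2577 bases upstream of its start. A region centred 15.12 kb from the Ncf1 start, assigned to another gene, was called in continuous E2, after 72 h and at 120 h. Ncf4, another cytosolic subunit, had a 978-base region inside the gene and a second region in every list except that at 72 h. Cyba, a subunit in the membrane, had a region 2412 bases inside the gene, and its other region was called in continuous E2 alone. Sirpa, the receptor of the don't-eat-me signal CD47, had as its only region the third widest of all 458 (chr2:129592048-129593433, 1386 bases). Clec4d, a C-type lectin receptor of phagocytes, had its only region 1638 bases upstream of its start. A region called in all 6 lists, assigned to another gene, was centred at -9.17 kb from the Clec4d start. Fcgr1, the high-affinity IgG receptor, had one 6666 bases upstream and another region that was called only in continuous E2 and after 24 and 40 h.

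Chemoattractant and adhesion receptor genes held a region called at 120 h alone in 4 of 19 (21.1%, interval 8.51 to 43.3), and all 4 encode chemoattractant or nucleotide receptors that couple to G proteins. Fpr1, the receptor of bacterial formyl peptides, had its only region 4437 bases past the gene's end. C5ar1, the receptor of complement fragment C5a, had its only region inside the gene, 1224 bases from the start. Ccr1, a chemokine receptor, had a region over its start, another called after 56 and 72 h and at 120 h, and a further one in continuous E2 alone. P2ry2, a receptor of extracellular nucleotides, had a narrow region of 174 bases past its end, along with a region called in all 6 lists and one absent at 120 h. None of the integrin or selectin genes of the list had a region called at 120 h alone.

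Alox5 encodes 5-lipoxygenase, which begins leukotriene synthesis, and was the only 1 of 9 eicosanoid genes with such a region (11.1%, interval 1.99 to 43.5). It had 2 of them, at 1875 and 43310 bases from its start and both inside the gene, and 1 more region, called in continuous E2, after 24 and 40 h, and at 120 h.

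Pattern recognition and inflammatory signalling genes had such a region in 5 of 36 (13.9%, interval 6.08 to 28.7). Nlrp3, the sensor of the inflammasome, had as its only region the second widest of the 458 (chr11:59541354-59542750, 1397 bases), over its start. Il1rn, the interleukin-1 receptor antagonist, also had its only region over an annotated start. Tlr4, the receptor of lipopolysaccharide, and Nfkbia and Tnfaip3, inhibitors of NF-kB signalling, had regions of 184, 189 and 397 bases beside other regions. Nfkbia and Tlr4 each also had a region called in all 6 lists, and Tnfaip3 had one called in every list but that of continuous E2.

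Myeloid transcription factor genes had such a region in 9 of 56 (16.1%, interval 8.69 to 27.8), with 10 regions in all. Rara and Rxra, which encode retinoid receptors that pair on DNA, were each assigned 1 such region and 1 region called in continuous E2 alone. A further 394-base region called at 120 h alone covered a start of Rara (chr11:98937473-98937866) but counts under an overlapping gene, Gm46294, whose boundary was nearer. Nfic, a nuclear factor I gene, had 2 such regions. Foxo1, a forkhead factor downstream of insulin signalling, had its only region at its start. Egr2, an immediate-early zinc finger factor, had one over its start and a second region seen only in continuous E2 and after 24 and 40 h. Irf2, Batf3, Nfe2l2 and Mxd1 each had 1, and every one of these 4 also had a region called both in continuous E2 and at 120 h.

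Monocyte and macrophage genes had a region called at 120 h alone in 3 of 16 (18.8%, interval 6.59 to 43.0), at Cx3cr1, the fractalkine receptor, Adgre1, which encodes the macrophage antigen used in flow cytometry, and Nr4a1, a nuclear receptor of patrolling monocytes. The interval of this share overlapped that of the late neutrophil genes, and expression was not measured, so the calls do not tell which kind of cell held the regions. In bulk samples, a region open in more cells and a region more open in each cell cannot be told apart. Lysosome genes had a region called at 120 h alone in 2 of 21 (9.52%, interval 2.65 to 28.9), at Ctsd, a protease, and Psap, which encodes a saposin precursor. Regions first called after 56 or 72 h and kept at 120 h were also counted in the lists above. They lay at 3 of 16 monocyte, 3 of 21 lysosome and 3 of 15 primary granule genes. They also lay at 3 of 21 oxidase, 2 of 19 receptor, 0 of 9 eicosanoid and 4 of 36 pattern recognition genes. Of the 56 transcription factor genes, 5 held one. Regions called in continuous E2 and not at 120 h lay at 8 of 16 monocyte, 9 of 21 lysosome and 10 of 15 primary granule genes. Further such regions lay at 11 of 21 oxidase, 10 of 19 receptor, 5 of 9 eicosanoid, 20 of 36 pattern recognition and 35 of 56 transcription factor genes.

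At genes of other states the shares were near that of all genes, or 0. Progenitor and Hoxa9-associated genes had a region called at 120 h alone in 1 of 27 (3.70%, interval 0.657 to 18.3), and it was a 1002-base region of Runx1, a hematopoietic transcription factor, which had 5 further regions. Cell cycle genes had 1 of 30 (3.33%, interval 0.591 to 16.7), at Ccnd3, which encodes cyclin D3 and had 5 further regions. No such region lay at 17 housekeeping genes (0%, interval 0 to 18.4), 6 erythroid and megakaryocyte genes (0 to 39.0), 7 lymphoid genes (0 to 35.4) or 4 mast cell, basophil and eosinophil genes (0 to 48.99). The intervals of all 6 lists included 3.67%, so none of them is set apart from genes at large. The same holds for the eicosanoid (1.99 to 43.5) and lysosome (2.65 to 28.9) lists. Of 348 listed genes with a region, 49 held one called at 120 h alone, and 336 of the 385 genes with such a region were in no list.

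**Figure D1:**
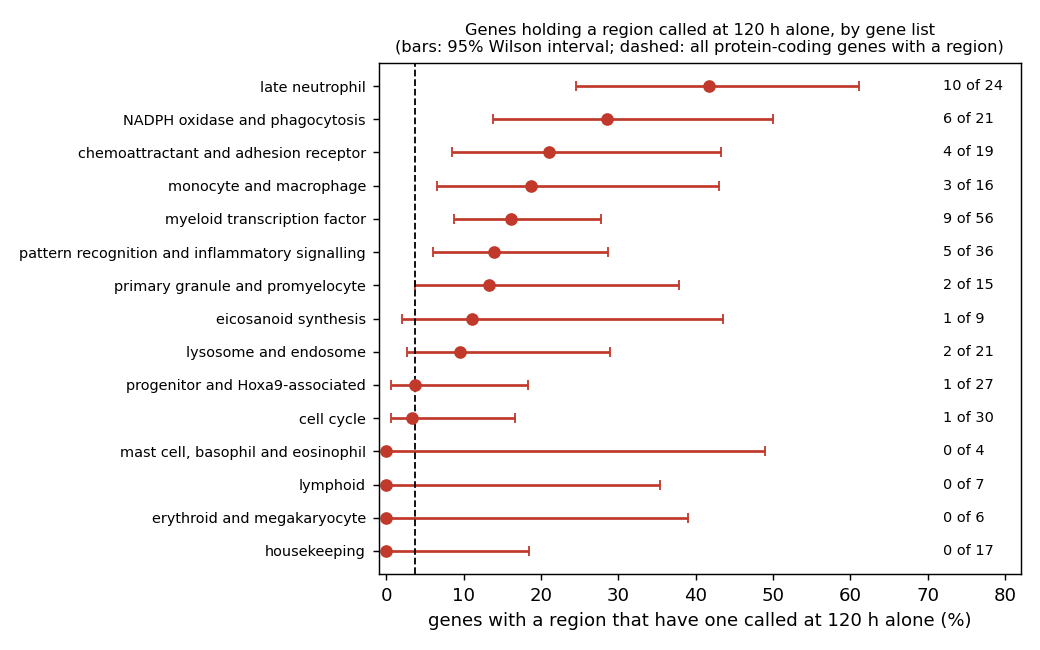
Percentage of genes with any region that had 1 or more called at 120 h alone, for 15 gene lists; points are shares, bars 95% Wilson intervals, and the dashed line the share over all protein-coding genes with a region (3.67%). Late neutrophil genes have the highest share, at 41.7%, and the 4 lists at the bottom have none.

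Most of the regions had peaks of other lists in the surrounding 50000 bases, but few had one close by. The median gap from a region called at 120 h alone to the nearest peak of any other list was 18935 bases (quartiles 7955 and 51471). Of the 458, 10 lay within 1000 bases of another list's peak, 71 within 5000, 142 within 10000 and 339 within 50000. Of the 385 genes, 109 (28.3%) had no region of any other kind, 107 (27.8%) also had a region called in all 6 lists and 157 (40.8%) also had one that was called in continuous E2 and not at 120 h. Over all 10478 genes the shares with these last 2 kinds of region were 46.7% and 43.5%.

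Genes of regions first called after 56 or 72 h and kept at 120 h, numbering 309, did not differ detectably in these shares. The difference, 120 h alone minus the earlier calls, was -2.43 points for no other region (interval -9.28 to 4.34), 2.23 for a constant region (-4.44 to 8.75) and 0.65 for a lost region (-6.69 to 7.93). Only 17 genes held both kinds. Differences of several points in either direction are inside these intervals. Genes of regions first called after 24 or 40 h differed more: 56.2% had no other region, a difference of -27.9 points (-33.7 to -21.8), and the differences were 15.03 points (9.92 to 20.3) for a constant region and 12.99 (6.96 to 19.01) for a lost region.

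**Figure D2:**
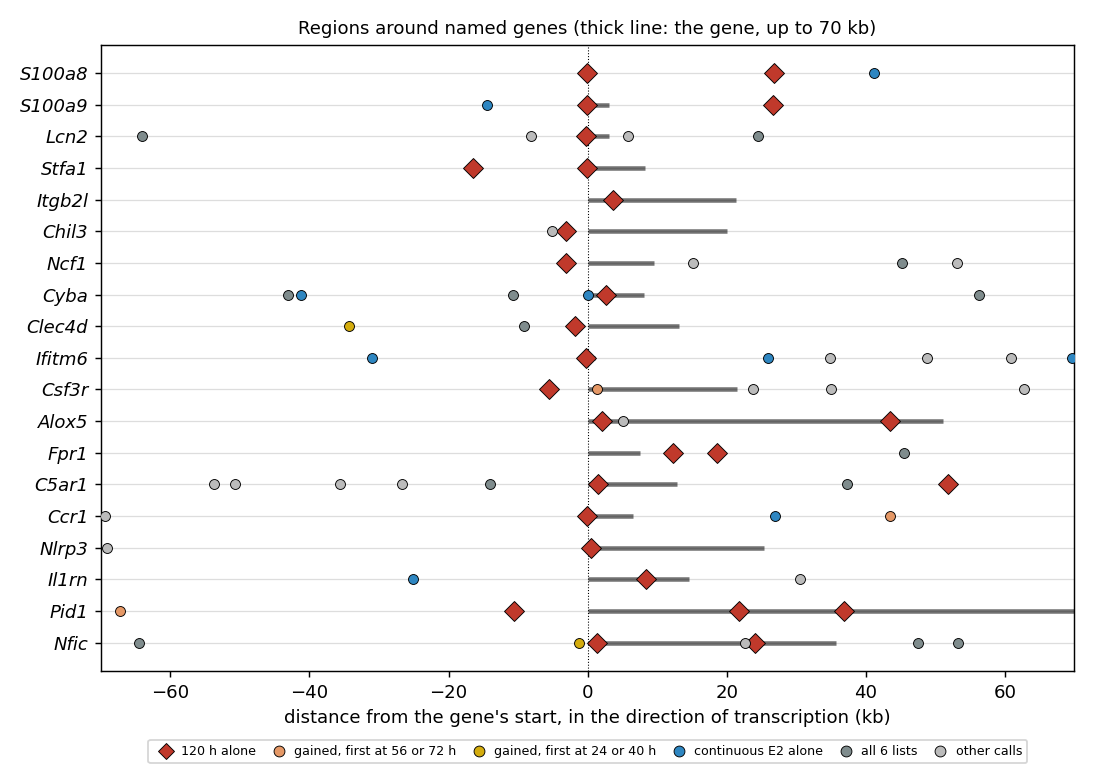
Regions around 19 named genes, as distance from the gene's start in kb in the direction of transcription; diamonds are regions called at 120 h alone, circles other regions coloured by the lists they were called in, and the thick line is the gene. Diamonds sit at the start in S100a8, S100a9, Stfa1, Ifitm6 and Ccr1, just upstream in Lcn2, and the Itgb2l and Nlrp3 regions were 66514 and 68771 bases from the nearest peak of another list.

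A few genes held several such regions. Pid1, an adaptor protein gene with a phosphotyrosine-interaction domain, had 3, and these were its only regions, spread over 47895 bases. Sowahc, which encodes an ankyrin repeat protein, had 2 and no other region. The remaining 9 genes with 2 were Acoxl, Alox5, Atrnl1, Dnajc5, Naip2, Nfic, Ptp4a1, Tnfrsf8 and Trim25. Naip2 encodes an inflammasome sensor of bacterial proteins, and its other region was called in continuous E2 alone. Tnfrsf8, which encodes the TNF receptor family member CD30, had 3 other regions, all lost at 120 h. Acoxl had 2 constant regions and Dnajc5 and Trim25 had 1 each. Along the chromosomes, 28 pairs and 1 group of 3 lay within 50000 bases of each other, and 399 regions had no such neighbour.

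The regions were narrow. Their median width was 342 bases (quartiles 255 and 463, range 118 to 1772), against 448 for regions first called after 56 or 72 h, 770 for those first called after 24 or 40 h, 586.5 for those of continuous E2 alone and 961 for those called in all 6 lists. Of the 120 h regions of at most 300 bases, 65.6% were called at 120 h alone, and of those over 1000 bases 0.324%. Width comes from the same peak calls that chose the regions, so it is given with no test. A region that is merged from several lists can also be wider than a region from 1 list.

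**Figure D3:**
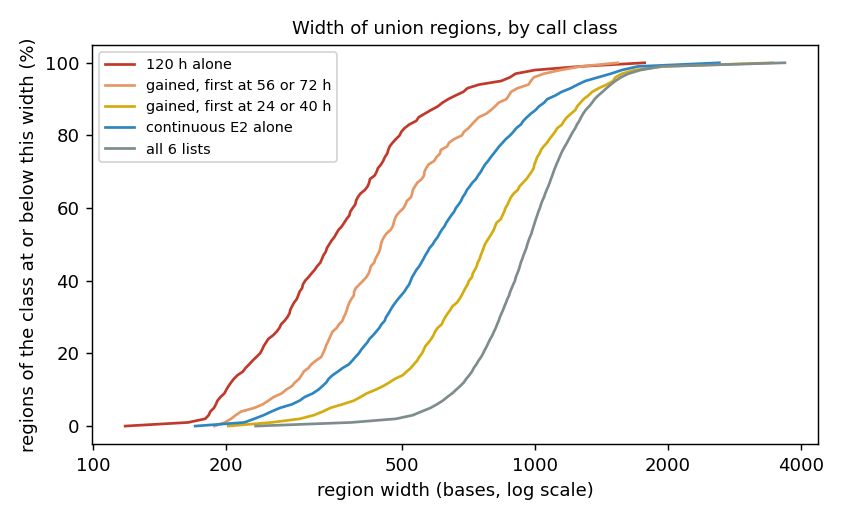
Cumulative percentage of union regions at or below a given width, with width in bases on a log axis, by the lists in which the regions were called. Regions called at 120 h alone (median 342 bases) lie left of every other class, and regions called in all 6 lists (median 961 bases) lie farthest right.

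The 15 widest included 12 with an assigned gene. The widest of all (chr11:106787583-106789354, 1772 bases) covered the starts of Ddx5, an RNA helicase, and its neighbour Cep95. Nlrp3, Sirpa, Ncf1, Runx1 and Ncf4 followed among the first 15, with Erf, an ETS-family repressor downstream of ERK (1330 bases over its start), Pilrb1, an activating paired receptor (983 bases over its start), Rlf, a zinc finger gene (1020), Prkcq, a protein kinase C gene (906), Ralgps2, a Ral exchange factor (903), and Ccdc63 (1253). The other 3 of the 15 had no protein-coding gene within 50000 bases. Ddx5, Erf and Pilrb1 had no other region, while Rlf and Ralgps2 each also had one called in all 6 lists.

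Few of the regions lay at gene boundaries, meaning within 1000 bases of the start or end of a protein-coding gene. That held for 44 of 458 (9.61%, interval 7.23 to 12.7). The share was 20.8% (16.9 to 25.3) in 351 regions first called after 56 or 72 h, 64.0% in 658 first called after 24 or 40 h, 16.1% (14.5 to 17.8) in 1966 of continuous E2 alone and 78.2% in 5265 called in all 6 lists. The difference was -11.2 points from the regions first called after 56 or 72 h (interval -16.3 to -6.23) and -6.47 points from those of continuous E2 alone (-9.38 to -3.05). The difference from the 56 or 72 h class was wider under some settings, at -25.3 points with 50% reciprocal overlap, -27.8 with lists of equal length and -18.6 with 120 h peaks of at least 581 bases. The corresponding differences were -54.4 points (-58.7 to -49.6) from the 24 or 40 h class and -68.6 (-71.2 to -65.4) from the constant regions.

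Width moved with these shares. Among regions of at most 500 bases, a limit chosen after seeing the data, the boundary share was 7.77% (29 of 373) at 120 h alone, 11.4% (24 of 210) in those first called after 56 or 72 h and 8.82% (63 of 714) in continuous E2 alone. The differences shrank to -3.65 points (interval -9.17 to 1.16) and -1.05 points (-4.31 to 2.63), so both intervals then included 0. With only 120 h peaks of at least their median width of 581 bases, the difference from continuous E2 alone turned to 7.26 points (-1.79 to 19.5). That limit was put on the 120 h peaks only, and the regions of continuous E2 alone kept all widths (16.1% at a boundary). Wide regions were thus set against regions of all widths. Among 120 h regions over 500 and up to 700 bases, the share was 12.0% of 50 called at 120 h alone and 47.8% of 987 others, a difference of -35.8 points (-42.9 to -23.6). At up to 300 bases it was 3.83% of 183 against 7.29% of 96 (difference -3.47, interval -10.7 to 1.89).

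**Figure D4:**
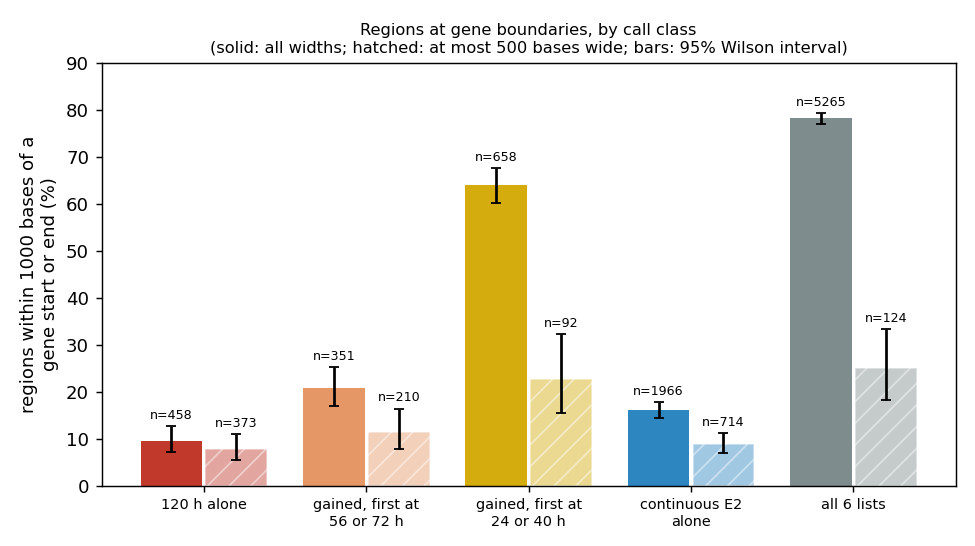
Percentage of regions at a gene boundary, start or end, with a margin of 1000 bases, for 5 classes of regions by the lists in which they were called; solid bars hold all widths, hatched bars regions of at most 500 bases, and error bars are 95% Wilson intervals over regions. The share at 120 h alone is the lowest among all widths (9.61%), and among the narrow regions its interval overlaps those of continuous E2 alone and of the 56 or 72 h class.

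Of the 458 regions, 233 lay inside a protein-coding gene (50.9%, interval 46.3 to 55.4). This differed by -3.54 points from those first called after 56 or 72 h (-10.4 to 3.39) and by -6.81 points from those of continuous E2 alone (-11.9 to -1.75). By distance from a gene boundary, 154 lay over 1000 and up to 10000 bases away, 169 up to 50000 bases and 91 farther. No gene within 50000 bases could be assigned to 61 regions (13.3%). The 5 farthest from any protein-coding gene, on chromosomes 10, 2, 7, 3 and 1, were 726151, 706858, 613833, 594433 and 535472 bases from the nearest such boundary and 267 to 475 bases wide.

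The gaps of regions inside the rule show how near they came to failing it. Just inside it, a region of Msrb1, a methionine sulfoxide reductase gene, lay 152 bases from another list's peak. One upstream of Lrrk2, a kinase gene, lay 191 bases away, and a region with no assigned gene 487, with Bend4 (563) and Trp53, which encodes p53, (673) next. Outside it, the 120 h peaks with the fewest shared bases were at Zfp362 (114), Evi2b (132) and Ptpn6 (138). A peak with no gene on chromosome 15 (138) and 1 at Dtnb (145) came next. The Zfp362, Ptpn6 and Dtnb peaks were narrow and lay wholly within another list's peak, so they were not close to passing the rule.

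Promoter sequence was read for the regions that reach a start. They overlapped 50 of the 300-base windows, belonging to 40 genes. RefSeq windows were at hand for 307 of the 385 genes assigned to the regions. These windows had a median of 5.5 CpG dinucleotides and 52.7% GC, against 19 and 60.7% for windows at regions first called after 56 or 72 h, 24 and 63.0% for those called in all 6 lists and 7 and 52.7% for all windows. The median CpG number rose above that of all windows, to 16 with 120 h peaks of at least 581 bases, 13 with lists of equal length and 14 when absence was required in continuous E2 and after 72 h only. The GC box GGGCGG occurred in 32% of the 50 windows, against 62.5% in the 56 or 72 h class, 74.1% in the constant class and 35.7% of all windows. The TATA box TATAAA occurred in 16%, against 4.89% in the constant class and 13.6% of all windows.

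Of 14 short motifs, PU.1 showed the widest gap from all promoters. GAGGAA, on either strand, occurred in a window of 25 of the 40 genes (62.5%, interval 47.0 to 75.8), against 16 of 62 genes in the 56 or 72 h class (25.8%, 16.6 to 37.9), 32.2% in continuous E2 alone, 26.5% in the constant class and 31.3% of all 27025 genes with a window. The 25 genes were not all independent. They included the cystatin-family genes Stfa1, Stfa2l1 and Cstdc5, and pairs that share a region, Dpp7 with Gm46732 and Ddx5 with Cep95. With lists of equal length the share at 120 h alone was 41.5%. CpG content moved with this comparison. Among windows with under 10 CpG dinucleotides, a split chosen after seeing the data, the match was in 20 of 29 genes (69.0%) at 120 h alone and in 11 of 17 (64.7%) of the 56 or 72 h class. Among those with 10 or more it was in 5 of 11 (45.5%, interval 21.3 to 72.0) at 120 h alone, 5 of 45 (11.1%, 4.84 to 23.5) in the 56 or 72 h class, 28.3% in continuous E2 alone, 26.1% in the constant class and 26.5% overall. In the low-CpG windows it was in 37.4% of genes in continuous E2 alone, 34.8% in the constant class and 33.4% overall.

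The C/EBP motif TTGCNNAA occurred in 9 of the 40 genes (22.5%, interval 12.3 to 37.5), against 16.1% in the 56 or 72 h class, 6.64% in continuous E2 alone, 7.42% in the constant class and 12.2% of all genes. Within low-CpG windows it was in 31.0% at 120 h alone, 29.4% in the 56 or 72 h class, 10.1% in the constant class and 14.99% overall. The interval over the 40 genes began just above the share of all genes. Stfa1 and Cstdc5, among the 9, carried the same match, TTGCCTAA, in nearly the same sequence. The interval counts them as independent genes, so it does not set the share apart from that of all genes. None of the 11 genes with windows of 10 or more CpG had a match (0%, interval 0 to 25.9), against 11.1% in the 56 or 72 h class and 7.55% overall. Counted over windows the share was 20%, and it fell to 8% with 120 h peaks of at least 581 bases, under the 10.8% of all windows. The KLF motif GGGTGTGG occurred in none of the 50 windows (0%, interval 0 to 7.13). The interval included the 3.56% of all windows, and none of the 64 windows of the 56 or 72 h class had a match either. The other motifs searched on both strands were ETS CCGGAA, AP-1 TGANTCA, CRE TGACGTCA, RUNX TGTGGT, an IRF motif, CCAAT, the E-box CACGTG, MEIS TGACAG and HOX-PBX TGATTNAT. A C/EBP match and a PU.1 match were capitalised alike in the stretches shown above, where they did not overlap.

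**Figure D5:**
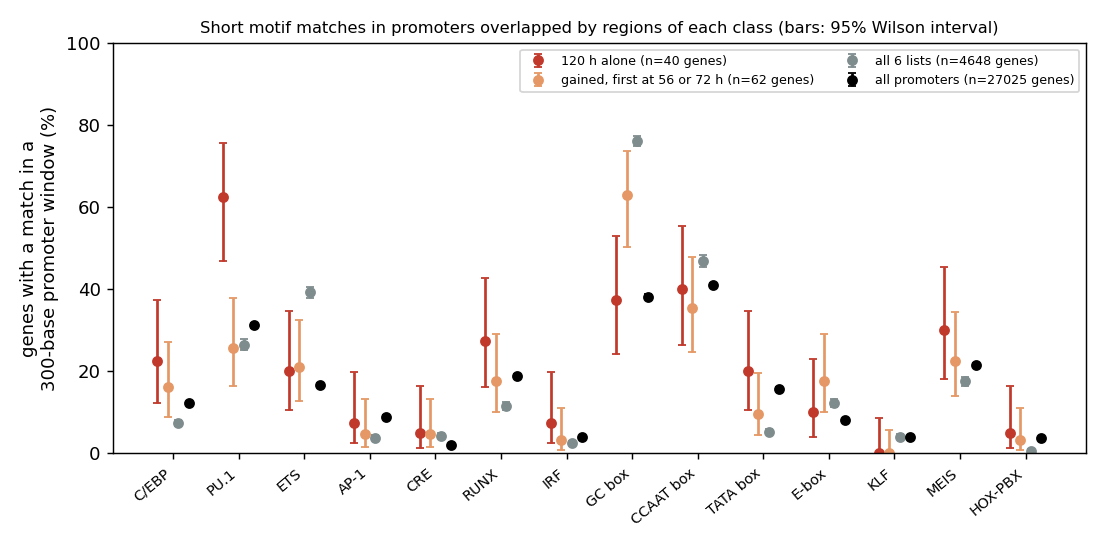
Percentage of genes whose 300-base promoter window overlaps a region of a class and holds each of 14 short motifs on either strand; points are shares and bars 95% Wilson intervals over genes, for 40 genes at 120 h alone, 62 first called after 56 or 72 h, 4648 called in all 6 lists and all 27025 genes with a window. The PU.1 share at 120 h alone, 62.5%, lies above the other 3, and the GC box share lies below those of both other called classes.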

How the data were processed

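Open chromatin had been profiled by ATAC-seq in 12 libraries, and 1 deposited peak list stands for the 2 libraries of each of 6 groups, per the labels. A list gives peak positions only, with no value per peak. The submitters' processing notes list STAR 2.5, BWA (no version) and MACS2 2.0, each without a stated role, and the build mm9; how the 2 libraries of a group were combined is not given in the sources used here. The coordinates were tested against RefSeq gene starts of GRCm38: 48.9% to 64.0% of peaks held a start, against 1.36% to 1.91% after a shift of 20000 bases, so GRCm38 was used.

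Exact duplicates (all on chromosomes 18 and 19) and intervals over 10000 bases were dropped, overlapping intervals were merged, and a shared base (1 or more) counted as overlap. Peaks could not be weighed by depth. Regions took the protein-coding gene they lay in or, failing that, the one with the closest boundary up to 50000 bases away. Exons and introns were not used here. Promoter windows (250 bases before to 50 after a start) and gene positions came from RefSeq, GRCm38; 17491 of 21896 protein-coding genes had a window.

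Shares have 95% Wilson intervals and differences 95% Newcombe intervals. No test between samples was made. The genes named are those with 2 or more regions called at 120 h alone, those of the 15 widest such regions, those of 16 gene lists (1 is not reported here), and the 5 regions farthest from a gene and the 5 nearest to another list's peak. These regions and the lists were chosen with earlier results of these data known. The limit of 500 bases, the width classes, the CpG split, the count of motifs per gene and the 6 promoters shown were chosen after seeing the data. Alternatives covered the overlap rule, list length, peak width, interval limit, chromosomes, boundary window and assignment distance. Cleaning, merging, overlap, gaps and gene assignment were tested on simulated data; the motif search was not. Python 3.11.15, numpy 2.4.6, pandas 2.3.3, scipy 1.17.1, statsmodels 0.14.6 and matplotlib 3.10.9 were used.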

Additional observations from a re-analysis of the deposited data

How the results depend on the processing

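No paired analysis was possible because the libraries numbered 1 and 2 of a group share 1 list, which also kept single libraries from being left out. Over the alternatives, 66 main values held their direction and side, 9 moved, 3 no longer had an interval clear of 0 and 1 reversed. Part of the 66 could not move, so that count does not measure robustness. A boundary window cannot change the number of regions or genes, and an assignment distance cannot change a boundary share. Leaving out intervals over 5000 bases, or using single 120 h peaks, returned every main value unchanged. With 120 h peaks of at least the median width of 581 bases, 60 regions were left at 52 genes, 4 of them late neutrophil genes. The boundary share was then 23.3% and the difference from continuous E2 alone reversed to 7.26 points (interval -1.79 to 19.5). The regions of continuous E2 alone kept all widths in that setting. With all lists shortened to equal length by width, 1081 regions at 859 genes were called at 120 h alone, 12.95% at a boundary. Requiring absence only in continuous E2 and after 72 h, the boundary share was 14.2%; differences between classes were not computed there. With a boundary window of 2500 bases it was 17.5%, and the difference from continuous E2 alone was -4.00 points (-7.71 to 0.139). For regions of at most 500 bases, added after seeing the data, the differences were -3.65 points from the 56 or 72 h class and -1.05 from continuous E2 alone. The cause of these changes was not tested, beyond the construction of each setting. The PU.1 share of 62.5% was 41.5% with lists of equal length and 44.6% when absence was required in 2 lists only. The difference from the 56 or 72 h class, -11.2 points, was -3.65 for regions of at most 500 bases. Over the other settings where it was computed, it ranged from -27.8 to -10.2. The number of regions was 525 under 50% reciprocal overlap, 456 and 448 where peaks within 200 or 1000 bases count as shared, and 432 without chromosomes 18 and 19. Depth was unknown, and which calls it limits cannot be stated.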

Other observations

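Some further genes with a region called at 120 h alone are given here by family. They were picked after their values were seen (Stfa1 alone was listed), other members of the families were not counted, and no test was made. Paired and lectin-like receptors of myeloid cells are cell surface proteins that pass activating or inhibitory signals. Cd300lf, Cd300lb, Pilra, Pilrb1, Clec4a1, Clec1a and Cd101 each had 1 region, called at 120 h alone, and no other; those of Pilrb1 (983 bases), Cd300lf (542 bases) and Clec4a1 (465 bases) covered the gene's start. Cd33, a sialic acid-binding receptor, had 1 such region beside a constant region and another called from 40 h on. Cystatin-family genes lie in a cluster on chromosome 16, and Stfa2l1, Csta2, Stfa1 and Cstdc5 each had as their only region 1 called at 120 h alone, 307 to 369 bases wide. These genes are near-identical in sequence in part, so how reads shared by them were placed can matter, and this was not tested.

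Signalling genes of myeloid cells also held such regions inside the gene. They were found at Inpp5d and Ptpn6, a lipid and a protein phosphatase, at the kinase genes Jak3 and Ptk2b, and at Trib1, which encodes a regulator of C/EBP alpha breakdown. The region of Jak3 was its only one, 61 bases from its start. Slc11a1, a metal transporter of phagosomes, had a 609-base region over its start, and its other 2 regions were called in continuous E2 and not at 120 h. Rab27a, a GTPase of granule release, had a region called at 120 h alone beside one called after 56 and 72 h and at 120 h.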
